A study of Homo sapiens with 9 samples.

Results

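DMS273 is an established human cell line of small cell lung cancer. The 3 libraries described here are those of its control cells, which carried a scrambled guide, one that matches no intended target, in the CRISPRv2 vector that brings Cas9 and a guide into cells. The control libraries were chosen by their labels, which also give their genotype as WT. They are 3 of the 9 libraries of the series, and the other 6 come from DMS273 cells with a knockout of ATG7 or of both ATG7 and SQSTM1, the genes of an autophagy conjugation enzyme and of the cargo receptor p62. All cells were grown in RPMI medium with fetal bovine serum. No drug treatment is named for them. The labels do not say whether the control cells were a clone or a pool, nor whether the 3 libraries came from separate cultures, so the spread given here may be technical. The results below describe the RNA levels of the control cells alone and compare no genotypes.

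Small cell lung cancer is an aggressive carcinoma with features of pulmonary neuroendocrine cells, the airway cells that store peptide hormones in dense-core vesicles. Its tumours and cell lines are commonly sorted by the transcription factor that dominates: among them the basic helix-loop-helix (bHLH) factor NEUROD1, the tuft cell factor POU2F3 and, in some schemes, YAP1 or ATOH1. Loss of RB1 function is part of its usual genetic ground, and a gene of the MYC family, which drives growth and ribosome production, is often amplified or highly expressed. Chromogranins, synaptophysin (SYP) and INSM1 serve as its diagnostic markers.

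The control libraries held 32538275, 28675576 and 30903274 counts in 27439, 26814 and 26958 genes. Their levels are given in TPM (transcripts per 1000000), here the counts per kilobase of a gene's merged exons, scaled so that nuclear protein-coding genes sum to 1000000 in each library. Unless stated otherwise a level is in TPM with its mean ± SD over the 3 control libraries. A gene was called detected when it stood at 1 TPM or more in every library, and not detectable at this depth when no library held more than 3 counts. The common biological coefficient of variation, the spread between libraries beyond counting, was 5.61% in edgeR. Among genes of 100 to 1000 TPM the median SD was 2.51% of the mean, where counting alone would give 1.48%, and among genes of 1 to 10 TPM it was 9.50% beside 8.67%. No test between genes was run, since 3 values against 3, taken as unpaired, cannot go below an exact p of 0.1. Neighbours in an order of levels were instead called apart only where their library values did not overlap. This rule and the SD of level ratios cover the spread between libraries, not the choice of gene length. Neither was redone with another gene length. As a check of the labels, ATG7 stood at 26.7 to 28.3 CPM (counts per 1000000 of a library) in the control libraries, at 9.75 to 12.8 in the ATG7 KO libraries and at 10.3 to 11.3 in the ATG7/SQSTM1 KO libraries. SQSTM1 stood at 377 to 383, 381 to 386 and 49.3 to 55.5 CPM in the same order. On the TPM scale the control cells held 14.2 ± 0.51 of ATG7 and 227 ± 3.6 of SQSTM1.

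Of 19902 nuclear protein-coding genes, 12992 were detected, which is 65.3%, the background against which each list below is read. A level of 10 TPM or more was reached in every library by 9466 genes, 100 TPM by 1862 and 1000 TPM by 106. At the other end 4161 genes were not detectable, 3106 of them with no count in any library. The median level over all protein-coding genes was 9.05 TPM. Counts from nuclear protein-coding genes made up 92.3% ± 0.53 of a library, those from long noncoding genes 1.33% ± 0.024, and those from pseudogenes 1.36% ± 0.022. Mitochondrially encoded genes took 5.50%, 4.87% and 4.49% of the counts in replicates 1, 2 and 3, with exact binomial 95% intervals of 5.491% to 5.507%, 4.857% to 4.872% and 4.477% to 4.492%. These intervals do not overlap, and they cover counting error only.

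The most abundant nuclear protein-coding transcript was FTL, the light chain of the iron store ferritin, at 10507, 12558 and 11246 TPM. NDUFS5, an accessory subunit of respiratory complex I, stood at 10788, 10078 and 11041 TPM, and its range overlapped that of FTL. EEF1A1, which delivers aminoacyl-tRNA to the ribosome, came next at 8974, 9030 and 9030 TPM, apart from both. FTL varied more between libraries (SD 1039 TPM) than EEF1A1 (SD 32.3 TPM). The following places went to RPS2 (6180 ± 111), the glycolytic enzyme GAPDH (5828 ± 181), the proteasome subunit PSMB4 (5188 ± 179), the translocation factor EEF2 (5095 ± 17) and the chaperone HSP90AB1 (4817 ± 25). The nucleolar protein NPM1 (4434 ± 93), RPS18 (4420), RPS12 (4392), the RNA-binding protein YBX1 (4272), RPL41 (4037), RPS4X (3908) and RPL13A (3846) completed the top 15. These 15 genes hold 6 ribosomal proteins, 2 elongation factors and 1 chaperone. Among the top 100, all above 1000 TPM, 40 encode ribosomal proteins by their symbols. By symbol, 4 encode elongation or initiation factors (EEF, EIF) and 4 encode chaperones (HSP, CCT or TCP1). Translation factors and chaperones with other symbols were not counted. The 10 most abundant genes carried 6.61%, 6.75% and 6.79% of the protein-coding TPM, and the top 100 carried 24.6%, 24.5% and 24.8%. Ribosomal protein genes have many near-identical pseudogenes that can take or lend reads: the pseudogene RPS28P7 was listed at 4270 ± 139 TPM and EEF1A1P5 at 3451 ± 46 TPM, so the level of a single translation gene is uncertain.

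**Figure D1:**
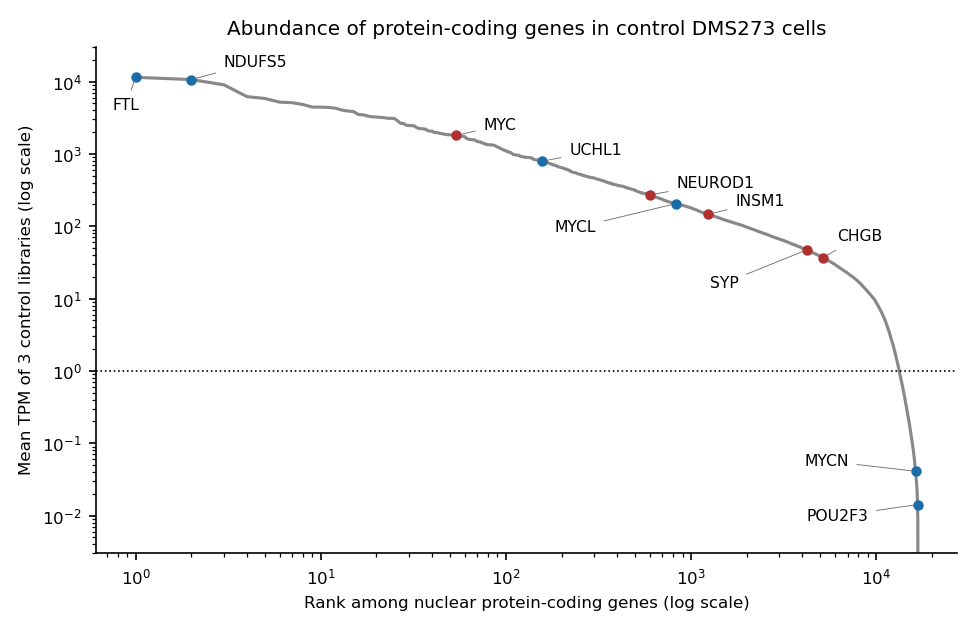
Mean TPM of the 3 control libraries (vertical axis, log scale) of each nuclear protein-coding gene with a count against its rank (horizontal axis, log scale), with the 5 markers in red, other named genes in blue and a dotted line at 1 TPM. MYC lies at rank 54, NEUROD1 at 598 and INSM1 at 1237, while MYCN and POU2F3 lie under the line.

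All 5 genes given as markers of these cells were detected. NEUROD1 (ENSG00000162992; GRCh38 chromosome 2, 181673088 to 181680876, minus strand), the bHLH factor that names a subtype, stood at 277, 267 and 269.7 TPM, rank 598 among protein-coding genes. INSM1 (ENSG00000173404; chromosome 20, 20368121 to 20370949, plus strand), a zinc-finger repressor that promotes neuroendocrine differentiation, stood at 143, 148 and 145 TPM, rank 1237. MYC (ENSG00000136997; chromosome 8, 127735434 to 127741434, plus strand) stood at 1814, 1809 and 1767 TPM, rank 54. The vesicle markers were far lower. SYP (ENSG00000102003; chromosome X, 49187804 to 49200259, minus strand), a membrane protein of synaptic vesicles, stood at 45.9, 47.5 and 47.5 TPM, rank 4206, and CHGB (ENSG00000089199; chromosome 20, 5911430 to 5925361, plus strand), a secretory granule protein, at 36.7, 37.7 and 36.0 TPM, rank 5149. No 2 of the 5 markers overlapped in their library values, and the order was MYC, NEUROD1, INSM1, SYP, CHGB.

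Among the subtype factors 2 of 5 were detected, NEUROD1 and YAP1. YAP1, the transcriptional coactivator of the Hippo pathway, stood at 22.2, 23.6 and 24.3 TPM, and NEUROD1 was 11.6 ± 0.72 times higher per library. ATOH1, a bHLH factor of sensory and secretory cells, had 8, 10 and 6 counts (0.544 ± 0.17 TPM). POU2F3, which directs tuft cell identity, had 2, 0 and 0 counts and was not detectable; 3 counts would have been at most 0.0722 TPM. In bulk RNA a low level in all cells and a higher level in few cells cannot be told apart, so the YAP1 level alone does not say whether NEUROD1 and YAP1 were in the same cells.

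Promoter sequences, the 250 bases before a gene's start in RefSeq (GRCh38.p14), are shown for 2 of the markers and for 2 genes with binding motifs, since the E-boxes bound by MYC with MAX (CACGTG) and by NEUROD factors with their partners (CAGATG) could be searched there. They were chosen after the search and read 5′ to 3′ on the gene's strand, with the searched motifs in capitals. NEUROD1 (chr2:181680518-181680767, minus strand) and SYP (chrX:49200194-49200443, minus strand) held neither. NEUROD6 (chr7:31340727-31340976, minus strand), a relative of NEUROD1, held CAGATG at 115 and 42 bases before its start, and CDK4 (chr12:57752311-57752560, minus strand), a kinase of the G1 phase, held CACGTG at 216, 196 and 101 bases before its start.
NEUROD1: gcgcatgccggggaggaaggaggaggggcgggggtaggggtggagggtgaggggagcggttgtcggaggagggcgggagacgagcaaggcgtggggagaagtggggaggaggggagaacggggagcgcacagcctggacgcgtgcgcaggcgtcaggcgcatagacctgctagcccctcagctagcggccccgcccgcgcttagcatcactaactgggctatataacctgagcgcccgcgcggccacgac
SYP: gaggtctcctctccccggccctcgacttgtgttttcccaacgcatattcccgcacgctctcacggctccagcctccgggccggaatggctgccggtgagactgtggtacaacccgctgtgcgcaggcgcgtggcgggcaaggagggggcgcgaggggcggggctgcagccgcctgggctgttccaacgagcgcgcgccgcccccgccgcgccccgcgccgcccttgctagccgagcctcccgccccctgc
NEUROD6: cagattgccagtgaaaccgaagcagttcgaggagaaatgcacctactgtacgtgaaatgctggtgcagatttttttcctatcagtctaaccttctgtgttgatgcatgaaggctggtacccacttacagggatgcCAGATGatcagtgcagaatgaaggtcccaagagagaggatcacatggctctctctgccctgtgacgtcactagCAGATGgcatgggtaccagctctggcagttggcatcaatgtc
CDK4: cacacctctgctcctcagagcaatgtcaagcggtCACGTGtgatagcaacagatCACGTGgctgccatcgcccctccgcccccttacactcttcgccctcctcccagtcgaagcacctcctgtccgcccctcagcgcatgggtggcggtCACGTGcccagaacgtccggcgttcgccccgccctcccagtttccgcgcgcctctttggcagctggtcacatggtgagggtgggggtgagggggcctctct
The NEUROD1 and SYP windows were rich in G and C (70% and 74%), with 24 and 31 CG dinucleotides, while that of NEUROD6 was 49.6% G and C with 4 CG dinucleotides. A match is a description of the letters, not of a bound site. The RefSeq starts differ from those of the gene annotation used for the levels. By that annotation the NEUROD1 and CDK4 windows lie inside their genes, and the SYP and NEUROD6 windows overlap theirs in part.

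Of 18 neurogenic bHLH factors and their partners, 15 were detected (median 23.2 TPM). The highest were inhibitors and general partners: ID3 (478 ± 21) and ID1 (302 ± 17), which bind bHLH partners without contacting DNA, HES6 (169 ± 7.7), the E protein TCF3 (149 ± 5.6), ID2 (115 ± 2.6) and the E protein TCF12 (58.7 ± 1.3). ID3, ID1 and HES6 did not overlap one another. The order of the NEUROD relatives began with NEUROD1, and NEUROD6 at 24.4, 21.3 and 24.6 TPM and NEUROD2 at 22.1, 24.2 and 22.4 TPM overlapped each other far under it. NHLH1 (14.6 ± 0.31), OLIG2 (12.9 ± 0.24) and NEUROD4 (8.08 ± 0.60) followed. NEUROG2 was low (2.14 ± 0.28), NEUROG1 crossed the threshold (0.764, 1.44 and 1.32 TPM), and NEUROG3, which starts endocrine differentiation in the gut and pancreas, had 2, 0 and 0 counts.

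Of 21 neuroendocrine lineage factors 15 were detected, 71.4% against 65.3% of all genes. SOX4 (169 ± 0.43) and INSM1 (146 ± 2.5) stood well above the rest, and the next were the LIM homeodomain factor LHX2 (21.7 ± 1.8), the sensory neuron factor POU4F1 (18.9 ± 1.1), REST (14.9 ± 0.77) and PROX1 (11.1 ± 0.76). REST represses neuronal genes outside neurons and was detected beside NEUROD1, which was 18.2 ± 0.75 times higher per library. SOX2, often expressed in this cancer, stood at 6.57 ± 0.89 TPM. ISL1, a LIM homeodomain factor of neuroendocrine cells, had no count in any library, and 3 counts would have been at most 0.167 TPM. POU3F2 had 14, 3 and 9 counts (0.258 ± 0.15 TPM), under the threshold in all 3 libraries. Within the families of developmental transcription factors, looked at after the levels were seen, its relative POU3F1 stood at 352, 369 and 357 TPM, above NEUROD1. FOXO6 was higher still (541 ± 15), GATA2 reached 99.5 ± 2.3 and HOXA9 87.2 ± 3.5. POU3F1 and FOXO6 lie on chromosome 1, with starts annotated at 38044611 and 41361922. Genes between them include NDUFS5, PABPC4 (3106 ± 92), CAP1 (2065 ± 34) and PPT1 (1864 ± 49). MYCL (205 ± 3.8) and the lower HEYL (40.7 ± 0.21) lie there too. Whether position bears on these levels was not tested. All 6 DLX genes were detected, as were 25 of 39 HOX genes, 26 of 44 FOX genes and 12 of 19 SOX genes.

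**Figure D2:**
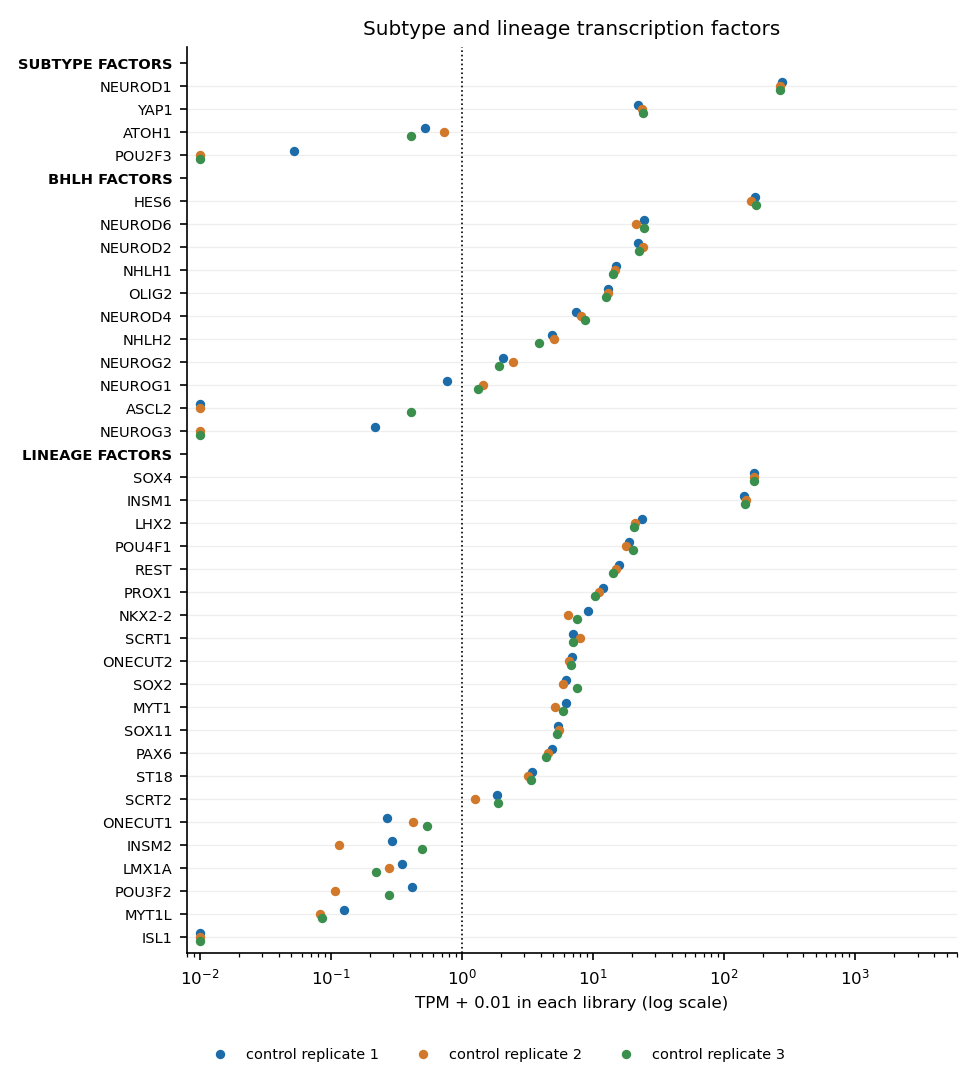
TPM plus an offset of 0.01 (horizontal axis, log scale) of subtype, bHLH and lineage factors in each control library (3 colours), with a dotted line at 1 TPM. The points of NEUROD1, SOX4, INSM1 and HES6 lie above 100 TPM, and those of ATOH1 and POU2F3 lie left of the line.

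Factors of lung and endoderm were low. Of 13, 7 were detected (53.8%), and the highest were SOX9 (12.9 ± 0.79), GATA4 (11.8 ± 0.87), FOXA1 (11.3 ± 0.45), KLF5 (10.3 ± 0.22), ELF3 (9.56 ± 0.71) and GATA6 (4.55 ± 0.83). SOX9 and GATA4 overlapped, and so did GATA4 and FOXA1. NKX2-1, the lung lineage factor known in pathology as TTF-1, had 22, 30 and 50 counts and stood at 0.984, 1.52 and 2.32 TPM, on both sides of the threshold. FOXA2 was detected at 1.44 ± 0.32 TPM. SOX17, a factor of early endoderm, had no count. Tuft cell genes were mostly under the threshold: 3 of 11 were detected (27.3%), namely SOX9, PTGS1 (5.08 ± 0.55) and GNG13 (2.27 ± 0.11), followed by ALOX5 (1.03 ± 0.37), AVIL (0.496 ± 0.11) and CHAT (0.189 ± 0.11). TRPM5, the taste transduction channel of tuft cells, had no count, and VAV1 had 0, 2 and 0 counts.

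Granins, peptides and the enzymes that process them were divided. Of 25 such genes 12 were detected, 48.0% against 65.3% of all genes, and 8 were not detectable. CPE, the carboxypeptidase of secretory granules, led at 289.9, 292 and 278 TPM. GAL, the precursor of galanin, was the highest peptide gene at 106, 120.4 and 118 TPM. PAM, the peptide amidating enzyme, came under it without overlap at 96.0, 95.1 and 96.8 TPM, and PCSK1N, an inhibitor of prohormone convertase 1, stood at 77.9 ± 6.7 TPM. CHGB (36.8 ± 0.83) and the peptide gene NMU (32.3 ± 1.8) came next. CPE was 7.78 ± 0.097 times higher than CHGB per library. Among CHGA, CHGB, SCG2, SCG3, SCG5 and VGF, CHGB was the highest. It was 3.75 ± 0.28 times higher than CHGA (9.85 ± 0.68), the most used blood marker of neuroendocrine tumours. VGF (18.5 ± 1.3), SCG2 (14.2 ± 0.55) and SCG3 (9.23 ± 0.90) were detected, and CHGA overlapped SCG3. SCG5 had 8, 7 and 11 counts (0.5865 ± 0.13 TPM). The convertase PCSK1 was low (1.64 ± 0.52), and PCSK2 had 22, 16 and 20 counts (0.405 ± 0.040 TPM).

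Several peptide hormones known from this cancer were absent from the counts. CALCA (calcitonin and its related peptide), CRH, GAST, TAC1 and VIP had no count in any library. GRP, the gastrin-releasing peptide that is a classical product of small cell lung cancer, had 0, 3 and 0 counts, SST had 3, 0 and 0, and NTS had 0, 2 and 0. For GRP 3 counts would have been at most 0.564 TPM and for CALCA at most 0.226 TPM. POMC, the ACTH precursor, had 3, 4 and 0 counts.

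Neuronal and synaptic genes were detected more fully, 21 of 25 (84.0% against 65.3% of all genes). UCHL1, a neuronal ubiquitin hydrolase, stood at 806.5, 764 and 803 TPM and was 16.9 ± 0.75 times higher than SYP per library. The neurofilament genes NEFM (105 ± 5.8) and NEFL (58.7 ± 2.4), the neuronal tubulin TUBB3 (73.7 ± 1.4), the growth cone protein GAP43 (53.4 ± 1.5) and neuron-specific enolase ENO2 (49.6 ± 4.9) followed. The exocytosis genes STX1A (49.3 ± 1.3), SYP (46.9 ± 0.93), VAMP2 (46.6 ± 1.9) and SNAP25 (13.3 ± 1.1) were all detected, and SYP overlapped VAMP2. STMN2, SYT4 and TH, the tyrosine hydroxylase of catecholamine synthesis, had no count in any library, and DCX had 7, 4 and 8 counts.

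**Figure D3:**
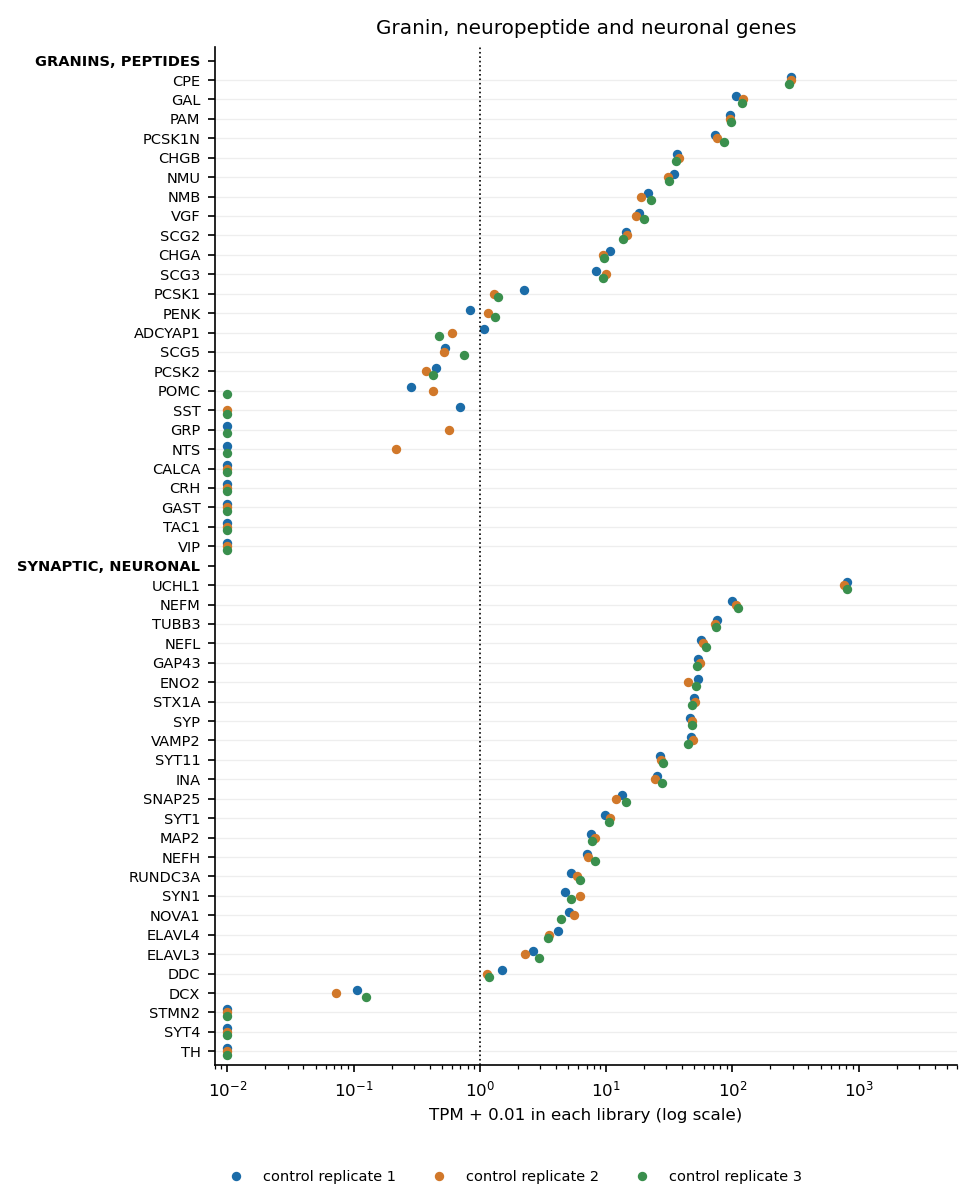
TPM plus an offset of 0.01 (horizontal axis, log scale) of granin, peptide, synaptic and neuronal genes in each control library (3 colours), with a dotted line at 1 TPM. UCHL1 and CPE lie farthest right, and the genes with no count, such as CALCA, VIP, STMN2 and TH, sit at the offset.

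The lists of subtype factors, bHLH factors, lineage factors, granins, neuronal genes and the MYC network together hold 107 different genes. Of these 77 were detected, beside 12992 of all 19902 nuclear protein-coding genes (65.3%). Not detectable were 15 of the 107, beside 4161 of the 19902. No count in any library was held by 9 of the 107, beside 3106 of the 19902.

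Of 13 genes of the MYC network 12 were detected (92.3%). MYC was 8.76 ± 0.18 times higher than MYCL per library and 20.3 ± 0.30 times higher than MAX, the partner it needs to bind DNA. MYCL, the family member first found in this cancer, was itself high at 209, 202 and 204.5 TPM, rank 829. MYCN had 0, 2 and 0 counts and was not detectable. The antagonists and relatives ran from MXI1 (93.4 ± 2.6), which overlapped no neighbour, over MAX (88.5 ± 1.2), MLX (72.9 ± 3.0), MXD4 (50.5 ± 0.27), MLXIP (36.6 ± 0.91), MGA (20.4 ± 1.4), MNT (15.9 ± 0.45) and MXD3 (15.1 ± 2.8) down to MXD1 (6.14 ± 0.78). PVT1, the noncoding neighbour of MYC, stood at 8.71, 8.39 and 7.95 TPM. The MYC level stood above that of each of its listed partners and antagonists in every library.

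Among 34 oncogenes and growth drivers 31 were detected, with a median of 63.5 TPM beside 9.05 TPM over all genes. MCL1, the anti-apoptotic BCL2 relative, led at 2115, 2077 and 2051 TPM, and the chromatin protein HMGA1 stood at 1690, 1767 and 1746 TPM. The cell cycle genes CDK4 (279 ± 2.5), MYBL2 (233.5 ± 8.2), CCND1 (174.5 ± 2.5) and E2F1 (172 ± 3.7) followed. Close relatives differed widely. MCL1 was 48.7 ± 2.0 times higher than BCL2L1 and 860.2 ± 59 times higher than BCL2 (2.43 ± 0.19), the target of venetoclax. CCND1 was 10.8 ± 0.57 times higher than CCND2, and HMGA2 stood at 0.372 ± 0.12 TPM against HMGA1 at 1734 ± 40. IGF2 (0.828 ± 0.10) and LIN28A (0.471 ± 0.20) were the other oncogenes under 1 TPM.

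All 22 tumour suppressors of the list had detected transcripts, with a median of 32.7 TPM. The cyclin-dependent kinase inhibitor CDKN1A stood at 370, 403 and 387 TPM, CDKN2A at 267.5, 260.1 and 272 TPM, CDKN2C at 105 ± 0.89, KEAP1 at 104 ± 5.7 and RBL2 at 83.2 ± 2.1. KEAP1 overlapped CDKN2C. With the longest annotated transcript as gene length, CDKN2A would stand at 2.33 times this level. RB1, whose function is lost in most tumours of this kind, had transcripts at 67.4, 65.3 and 62.8 TPM. RNA levels say nothing about mutations in RB1, which were not analysed here. TP73 (53.5 ± 2.2) was detected, and FHIT was the lowest of the list (2.37 ± 0.10).

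Of 30 surface molecules that serve as tumour markers or drug targets 23 were detected (76.7%). General carriers and adhesion genes led: the transferrin receptor TFRC (353 ± 4.0), the integrin ITGB1 (211 ± 4.9), the amino acid transporter chain SLC3A2 (171 ± 3.1), the tetraspanin CD151 (159 ± 3.7), the neural adhesion molecule L1CAM (122 ± 5.7) and CD24 (90.9 ± 0.99). L1CAM was 8.62 ± 0.087 times higher than NCAM1 (14.2 ± 0.52), the CD56 antigen of neuroendocrine tumours. DLL3, the Notch ligand targeted by tarlatamab, stood at 34.2, 28.7 and 31.8 TPM. SSTR2, the somatostatin receptor used in imaging, stood at 27.4, 28.9 and 26.1 TPM, and its range overlapped that of DLL3. CD276 (54.5 ± 1.4), CXCR4 (37.8 ± 2.6) and SEZ6 (6.54 ± 0.33) were also detected. Carcinoembryonic antigen CEACAM5 had no count, and MSLN had 2, 2 and 0 counts. B4GALNT1, the synthase of the gangliosides GM2 and GD2, stood at 25.6 ± 0.81 TPM, while ST8SIA1, the synthase of the GD2 precursor, had 7, 8 and 4 counts (0.0657 ± 0.024 TPM). The neural cadherin CDH2 (50.9 ± 0.96) was 26.9 ± 2.3 times higher than the epithelial cadherin CDH1 (1.90 ± 0.13), and EPCAM stood at 3.59 ± 0.31 TPM.

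Receptor kinases were detected about as often as all genes, 17 of 24 or 70.8%. The hepatocyte growth factor receptor MET (93.9 ± 2.3) and the collagen receptors DDR1 (86.9 ± 2.4) and DDR2 (42.2 ± 0.65) led, followed by FGFR2 (23.4 ± 0.98) and EPHA2 (16.4 ± 0.060). MET was 8.91 ± 0.46 times higher than EGFR (10.6 ± 0.33). KIT, the stem cell factor receptor, stood at 4.88, 4.69 and 8.17 TPM, with replicate 3 above the others. RET crossed the threshold (0.921, 0.625 and 1.12 TPM), and KDR had 2, 4 and 3 counts.

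**Figure D4:**
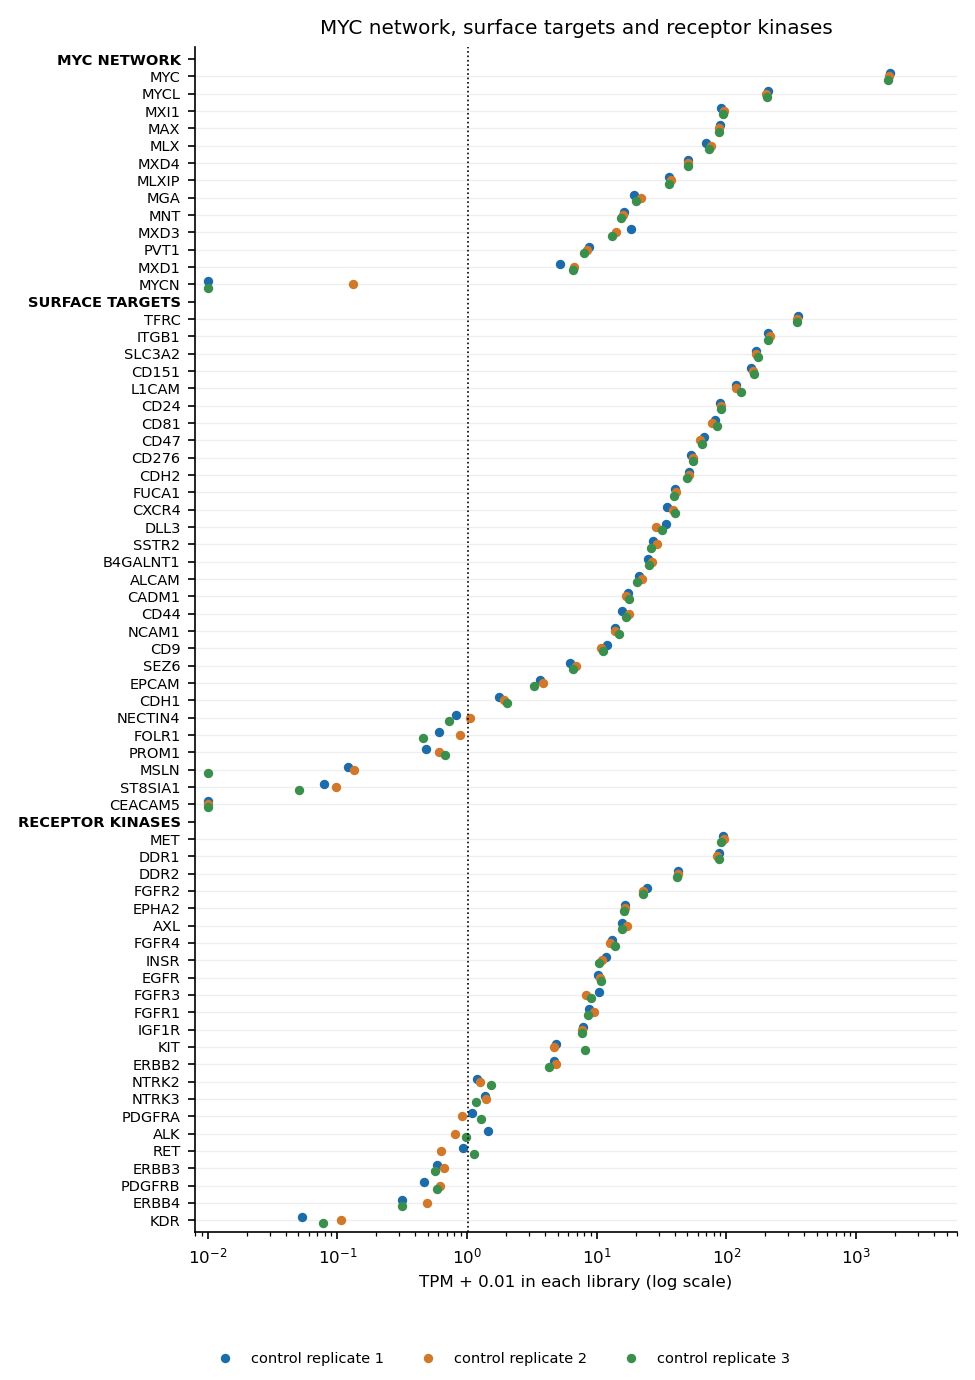
TPM plus an offset of 0.01 (horizontal axis, log scale) of MYC network genes, surface targets and receptor kinases in each control library (3 colours), with a dotted line at 1 TPM. MYC lies alone near 1800 TPM, and KIT is a receptor kinase whose replicate 3 point stands apart.

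Genes of antigen presentation and immune ligands were detected in 22 of 24 cases (91.7%). The class I genes HLA-B (326.5 ± 14) and HLA-C (314 ± 11) and their shared light chain B2M (306 ± 2.1) were high, with the peptide loading gene TAPBP (132 ± 5.7) and HLA-E (114 ± 2.5) next. HLA-B and HLA-C share long stretches of sequence and vary from the reference, so their single levels are uncertain. Class II genes were present at lower levels, with CD74 at 46.7 ± 0.48 and HLA-DRA at 30.5, 31.5 and 27.9 TPM, and their activator CIITA at 1.52 ± 0.21. CD274, which encodes PD-L1, stood at 1.52, 0.584 and 0.820 TPM on 44, 15 and 23 counts, and PDCD1LG2 had 11, 3 and 0 counts.

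Of 19 Notch pathway genes 15 were detected (78.9%). The receptor NOTCH2 (96.0 ± 2.0) and the ligand JAG2 (95.7 ± 0.75) overlapped at the top, followed by the targets HES4 (71.9 ± 1.8) and HEYL (40.7 ± 0.21), the ligand DLL3 (31.5 ± 2.8) and the target HES1 (24.2 ± 3.5). NOTCH2 was 5.05 ± 0.21 times higher than NOTCH1, and NOTCH4 had 10, 0 and 7 counts. HES6, which counters HES1, was 7.27, 5.76 and 8.34 times higher than HES1.

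In the list of non-neuroendocrine and mesenchymal genes 23 of 25 were detected (92.0%), with a median of 32.6 TPM. The list also holds epithelial genes, so this count is not one of mesenchymal genes alone. KRT18 (26.25 ± 0.90), KRT8 (12.05 ± 0.34) and CDH1 (1.90 ± 0.13) are among the 23. The intermediate filament VIM stood at 389, 372 and 374 TPM and was 14.4 ± 0.42 times higher than KRT18, a keratin of simple epithelia. LGALS1 (139 ± 6.3), ANXA2 (127 ± 1.7), S100A10 (122 ± 11), CAV1 (53.0 ± 0.86) and the transcription factor SNAI1 (51.9 ± 2.1) followed. Further factors of epithelial-mesenchymal transition were detected, among them TWIST1 (37.2 ± 2.2), ZEB1 (35.9 ± 0.87) and SNAI2 (30.4 ± 1.4). WWTR1, the YAP1 relative known as TAZ, stood at 42.0 ± 2.6 TPM, above YAP1 in every library, while their usual target CCN2 was low (3.13 ± 0.37) and CCN1 stood at 32.6 ± 1.1. ESRP1, an epithelial splicing regulator, crossed the threshold (1.02, 0.624 and 0.902 TPM), and S100A6 had 2, 0 and 8 counts.

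Drug response genes were detected in 19 of 20 cases. The tubulin TUBB, a target of taxanes and vinca alkaloids, stood at 3486, 3499 and 3490 TPM, followed by MCL1, TOP2A (435 ± 1.5), the etoposide target, PARP1 (378 ± 8.2), the topotecan target TOP1 (341 ± 6.8) and RRM1 (259 ± 3.5). SLFN11, whose loss is tied to resistance to DNA-damaging drugs, stood at 17.2, 16.4 and 16.2 TPM. MGMT, which removes alkyl groups from guanine, stood at 14.9 ± 1.3. Efflux pumps differed: ABCC1 stood at 89.1 ± 4.1 TPM, ABCG2 at 2.53 ± 0.083, and ABCB1, the P-glycoprotein gene, had 10, 14 and 17 counts (0.353 ± 0.097 TPM).

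All 18 proliferation genes were detected, with a median of 310 TPM. PCNA (889 ± 19), the helicase subunit MCM7 (555 ± 3.8), TOP2A, the mitotic activator CDC20 (394 ± 17), TYMS (393 ± 12) and MCM3 (363 ± 9.6) were the highest. MKI67, the gene of the Ki-67 antigen, stood at 94.9, 111 and 96.7 TPM. All 14 housekeeping genes were detected as well, from EEF1A1 down to the initiation factor TBP (56.6 ± 2.0). GAPDH and HSP90AB1 came after EEF1A1, and then the actin gene ACTB (3325 ± 91) and the enzymes ENO1 (3098 ± 88) and PPIA (2237 ± 12). No neighbours in that list overlapped.

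Markers of other cell types were read to see what else the libraries might hold. Of 11 blood cell markers 3 were detected (HBA1 at 11.8 ± 1.3, CD68 at 4.78 ± 0.74 and ITGAM at 2.27 ± 0.22), and CD14 (0.992 ± 0.32), PTPRC (0.0881 ± 0.054) and CD79A (2, 0 and 0 counts) were lower. CD3D, CD3E, HBB, LYZ and MS4A1 had no count, and the 11 genes summed to 17.8 to 21.6 TPM. PTPRC, the common leukocyte antigen, had 6, 8 and 2 counts. Of 12 lung epithelial markers 3 were detected (AGER at 8.44 ± 1.0, TP63 at 1.95 ± 0.11 and SFTPA1 at 1.67 ± 0.27). KRT5 (0.189 ± 0.10), SFTPC (0, 6 and 3 counts) and SFTPB (0, 3 and 0) were near zero, and FOXJ1, KRT14, MUC5AC, MUC5B, SCGB1A1 and SCGB3A1 had no count. The 12 genes summed to 10.9 to 13.7 TPM. None of 6 endothelial markers was detected in every library, with CLDN5 highest at 1.17 ± 0.48 TPM on 40, 15 and 27 counts. The other 5, TEK (0.529 ± 0.051), PECAM1 (0.520 ± 0.056), CDH5 (0.213 ± 0.026), KDR (0.0692 ± 0.027) and VWF (0.0475 ± 0.020), were under 1 TPM in every library, and the 6 summed to 2.20 to 2.88 TPM. Fibroblast markers differed from the other 3 lists, with 6 of 8 detected. The matrix genes LUM (114, 133 and 120 TPM) and COL3A1 (50.9, 52.3 and 49.5 TPM) made up most of their summed level of 181 to 202 TPM. COL1A1 (9.28 ± 0.40), DCN (2.70 ± 0.027), FAP (2.54 ± 0.20) and COL1A2 (1.73 ± 0.13) were lower. The surface markers PDGFRB (0.545 ± 0.079) and THY1 (5, 4 and 0 counts) were under 1 TPM in every library. The part of other cells in these levels was not tested.

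**Figure D5:**
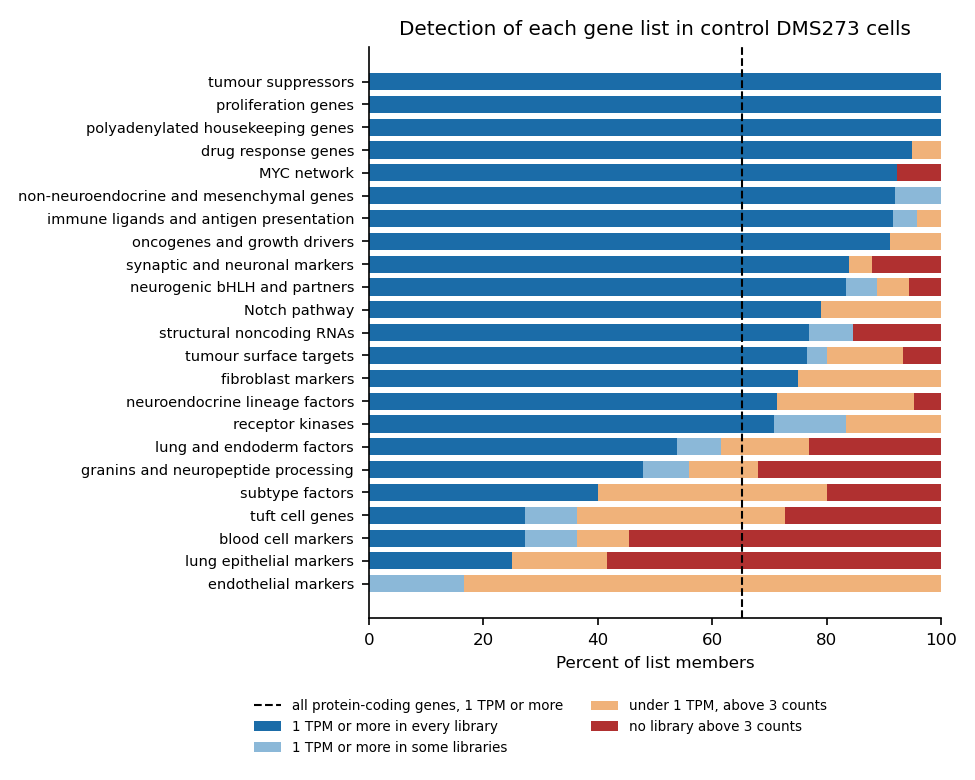
Percent of the members of each of 23 gene lists (horizontal bars) at 1 TPM or more in every control library, in some libraries, under 1 TPM but above 3 counts, or with no library above 3 counts, with a dashed line at the 65.3% of all nuclear protein-coding genes detected. Tumour suppressors, proliferation and housekeeping genes reach 100%, and lung and endoderm factors, granins, subtype factors and the tuft, blood, lung epithelial and endothelial markers lie left of the line.

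Libraries depleted of ribosomal RNA also hold transcripts without a poly(A) tail. The highest noncoding gene of at least 200 bases was BCYRN1, a brain cytoplasmic RNA related to Alu repeats, at 9522, 9286 and 11919 TPM; Alu repeats are nearly identical in many places of the genome, so this level is uncertain. The snoRNA host genes SNHG29 (1025 ± 50) and SNHG19 (698.5 ± 62) followed, and then FP236383.5 (504.8 ± 66) and FP236383.4 (447 ± 58). FP236383.5 and FP236383.4 are both 923 bases long and on chromosome 21, as are FP671120.7 (424 ± 57) and FP671120.8 (266 ± 42). Whether these entries share reads was not tested, so their single levels are uncertain. Of 13 structural noncoding RNAs 10 were at 1 TPM or more in every library. The share was 13.9% among 15904 long noncoding genes, a class that leaves out the gene type of listed members such as RN7SL1 and RN7SL2. The signal recognition particle RNAs RN7SL2 (439, 318 and 530.0 TPM) and RN7SL1 (288, 190.0 and 343 TPM), the growth arrest transcript GAS5 (401 ± 28), SNHG1 (257 ± 5.3), and the nuclear RNAs MALAT1 (130 ± 15) and NEAT1 (89.3 ± 8.1) were the highest of that list. SCARNA2 had 0, 1 and 2 counts and the imprinted MEG3 had 2, 0 and 0. TERC, the template of telomerase, had 0, 1 and 12 counts, so its mean of 1.18 TPM rests on replicate 3 and falls to 0.125 of that value without it. Among the 13 mitochondrial protein-coding genes, on the same scale, MT-CO3 was the highest (46773, 42568 and 36314 TPM) and MT-ND6 the lowest (4246 ± 868).

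Promoter motifs were described by level for the 11134 protein-coding genes with exactly 1 start in the promoter table. CACGTG, a palindrome that reads the same on both strands, was found in 7.87% of their 250-base windows. The share was 4.94% among 2428 genes that were not detectable, 4.38% among 1233 under 1 TPM, 8.02% among 1821 of 1 to 10 TPM, 9.52% among 4432 of 10 to 100 TPM, 11.1% among 1152 of 100 to 1000 TPM and 8.82% among 68 at 1000 TPM or more. CAGATG, searched on both strands, was found in 9.66% of all windows, and in the same order of classes in 15.1%, 12.4%, 9.61%, 6.59%, 6.94% and 11.8%. No base can belong to both motifs, since neither ends as the other begins. Base composition moved with the level: mean G and C was 50.2% in windows of genes that were not detectable and 65.9% in those of 10 to 100 TPM, and its part in the motif shares was not tested. In the bHLH list 3 of 13 windows held CAGATG, those of NEUROD6, NEUROD2 and NHLH1, as did 3 of 10 in the neuronal list. Among oncogenes 4 of 14 held CACGTG, those of CDK4, MYBL2, NRAS and IGF2BP3. CACGTG was also held by 3 of 8 windows of the MYC network and 3 of 11 of proliferation genes. Each list has few windows, and no list was tested against the share of all windows. None of 11 windows of lineage factors held CAGATG, and neither motif was found in 13 windows of Notch pathway genes, 11 of receptor kinases or 10 of drug response genes. In the granin list VGF and TAC1 held CACGTG, although VGF stood at 18.5 ± 1.3 TPM and TAC1 had no count.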

How the data were processed

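Total RNA was depleted of ribosomal RNA and made into strand-specific libraries marked with dUTP, per the labels' protocols. The submitters' processing notes name HISAT2 and the build hg38. How genes were counted (program, annotation, strand) is not given in the sources used here, so overlapping genes may share reads. The authors deposited whole-number counts per gene; missing cells (120209 in the control columns) were read as 0, and 1 column of no sample was not used. Of 67140 gene IDs 58503 matched GENCODE 29, and the others held 0.0453% to 0.0478% of the counts. TPM were computed from the counts and merged exon lengths with pandas 2.3.3, and the spread in edgeR 4.0.16 (filterByExpr, minimum count 10, 17152 genes). Counts of any pair of control libraries differed by more than sampling, with chi-square per degree of freedom of 5.35 to 6.50. The scripts were tested on simulated data.

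The 24 gene lists hold 415 entries from general knowledge, of which 413 matched exactly 1 gene ID. LINC00473 matched none, and RMRP matched 2 and was left out. Lists overlap, for example in MCL1, TOP2A, DLL3 and YAP1. The cells, markers and lists were chosen with earlier results of these data known. Named genes are the markers, the 15 most abundant protein-coding and 5 most abundant noncoding genes, and per list up to 6 members of highest mean, members with no library above 3 counts, and all subtype, MYC network and targeted autophagy genes; a few genes it covers are left out here. Other genes named, the level ratios and the shown promoters were chosen after their values were seen. Promoters are from RefSeq (GRCh38.p14); of 19847 genes with a unique symbol 11134 had 1 entry and 3942 several, which were not used.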

Additional observations from a re-analysis of the deposited data

How the results depend on the processing

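Levels depend on the gene length and on the total used for scaling. The median level of genes at 1 TPM or more was 24.7 TPM, 24.1 TPM with the longest annotated transcript as gene length, and 18.8 TPM when all matched genes of at least 200 bases shared the same total. With the longest transcript the 10 most abundant genes carried 6.21% in place of 6.72%, and 26 of 314 named genes moved by over 1.5 times. Over all 314 the level ran from 0.690 of that reported for LUM to 2.33 times for CDKN2A. NEUROD1 then stood at 217.5 TPM, MYC at 1574, INSM1 at 101, SYP at 67.7 and CHGB at 45.2, in the same order. At 5 TPM, 1 blood cell, 1 lung epithelial, 1 tuft cell and 3 fibroblast markers were counted. At 0.5 TPM 1 endothelial marker was counted, and at 10 counts or more in every library 3 endothelial and 5 tuft cell genes. Leaving out each replicate gave 0 to 1 endothelial markers, CLDN5 without control replicate 2. The coefficient of variation was 6.55% with no low-count filter and 5.53% to 5.91% when a replicate was left out. For the other counts and shares each alternative tried stayed within 1.5 times or within the libraries' SD. No paired analysis was possible because no groups of samples were compared. Genes under about 3 counts are below what this depth shows.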
